A study of Mus musculus with 23 samples.

Results

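Trp53, the mouse gene for the transcription factor p53, and 9 genes of its damage response (Mdm2, Cdkn1a, Ccng1, Bbc3, Bax, Phlda3, Eda2r, Trp53inp1 and Gdf15) were followed in hippocampal neurons that lost Nedd8. The 10 genes were taken by name from the 56941 genes of the count files, through their Ensembl identifiers in the annotation of GRCm39. The cells were primary hippocampal neurons from P0 mice, all homozygous for Nedd8cKO, an allele of Nedd8 flanked by LoxP sites. Both groups received a lentivirus on the first day in vitro, expressing either the red fluorescent protein RFP (RFP group) or CRE recombinase together with RFP (CRE group). Per the labels, RNA was taken after 12 days in culture, while the study's methods give a day more. The virus used the Synapsin1 promoter, which is active in neurons, so deletion is driven in neurons rather than in the glia that share the dish. No uninfected and no CRE-only control without LoxP sites was among the libraries analysed here, so effects of CRE itself and of losing Nedd8 cannot be told apart. The comparison used 21 libraries, 11 CRE and 10 RFP, and the number 1 to 3 before the hyphen of a library's name was read as its culture. The n of 10 and 11 libraries thus stands for 3 cultures, and libraries of 1 culture are not separate animals.

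NEDD8 is a small protein that is attached to other proteins much as ubiquitin is, and its best known targets are the cullins, scaffolds of ubiquitin ligases that need it for activity. p53 is held low in unstressed cells by MDM2, a ubiquitin ligase that p53 itself switches on, and MDM2 is also known to attach NEDD8 to p53. Upon DNA damage or other stress p53 accumulates and raises genes for cell cycle arrest (p21, encoded by Cdkn1a), for apoptosis (PUMA, encoded by Bbc3, and BAX) and for feedback on itself. In neurons, which no longer divide, p53 is best known for its part in death after injury. The abundance of p53 protein is set largely after transcription, and only RNA was measured here.

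p53 binds DNA at a pair of half-sites, each with a 4-letter core (a C and a G around A or T letters) between 3 purines and 3 pyrimidines. To place the members' regulation in sequence, 3000 bases on each side of the canonical start of each gene were read from GRCm39 on both strands. A site was counted when both cores were exact, the half-sites were adjacent, and at most 2 of the 12 flanking letters differed from the consensus. Such a site lay in the window of 3 of the 10 genes, of 9 of 43 other p53 targets (20.9%) and of 476 of 12967 protein-coding genes tested (3.67%). The 3 sites are shown with the cores in capitals, and each had 1 letter off the consensus.
Cdkn1a: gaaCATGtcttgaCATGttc
Ccng1: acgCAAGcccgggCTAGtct
Gdf15: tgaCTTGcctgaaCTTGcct
The Cdkn1a site, chr17:29309902-29309921 on the plus strand, begins 2836 bases before the canonical start, in an exon of the annotated gene Gm64878. The Ccng1 site, chr11:40645763-40645782 on the minus strand, begins 356 bases after the start and falls in an intron of Ccng1. The Gdf15 site, chr8:71084616-71084635 on the minus strand, begins 476 bases after the start and falls in an exon of Gdf15 that Gm34154 overlaps. Binding of p53 was not measured, and the other 7 windows, which held no such match, say nothing about binding elsewhere in those genes.

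In the 21 libraries compared, deposited counts ranged from 7430401 to 13345552 in total for a CRE library and from 9833872 to 17112815 for an RFP library. Levels are given as CPM (a gene's counts relative to its library's size, scaled with TMM factors), and fold changes as log2 of CRE over RFP from edgeR's quasi-likelihood test with p-values adjusted over 14488 genes. Nedd8 itself lay at 61.4 ± 10.2 CPM (SD, n = 10) in RFP and at 11.5 ± 3.49 CPM (SD, n = 11) in CRE libraries, and all 11 CRE libraries were below every RFP library. Within the comparison, CRE 1-3 and RFP 2-4 stood apart. Over genes their levels rose with GC content (Spearman 0.739 and 0.448, against -0.262 to 0.158 in the other 20 libraries when CRE 3-3 is also set aside), and their mitochondrial share was 0.261% and 3.44% against 6.997% to 11.1%. CRE 3-3 and RFP 3-2 were outside the comparison. Members are therefore given with and without CRE 1-3, the library of the comparison with the strongest trend. Besides Trp53, opposite-strand exons overlap Cdkn1a (504 bases, Dino), Mdm2 (348, Gm56970), Ccng1 (114, Nudcd2) and Nedd8 (331, Gmpr2). Among genes named further on they overlap Sco2 (4133), Cdc25c (1907), Mog (1474), Atr (1244), Gadd45a (990), Ccna2 (714), Pdgfra (624) and Sesn1 (548). Smaller overlaps are those of Trp53i11 (516), Ppp1r13l (483), Olig1 (385), Tigar (263), Psrc1 (198), Polk (94), Cx3cr1 (78) and Ephx1 (72). Opposite-strand exons also overlap Csf1r (1461), Aif1 (703) and P2ry12 (294). On the same strand, exons of other genes overlap Sco2 (5313), Itgam (3450), Bax (192, Gm45808), Atr (178), Top2a (122) and Pdgfra (74). Counts of these genes are uncertain to that extent.

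Of the 10 genes, 8 were higher in CRE libraries at an adjusted p under 0.05 and none was lower. With counts summed to 1 value per culture and group (3 against 3) 9 were higher, Eda2r included, beside 11.8% of the 18417 genes of that fit. In the 21 libraries the remaining pair, Eda2r and Gdf15, also had positive fold changes but missed the threshold. With edgeR no member was lower at an unadjusted p under 0.05 either (0 of 10), and DESeq2 and limma-voom likewise called 0 lower. Over all genes tested, 30.2% were called, 16.4% higher and 13.8% lower, so a change in some direction was common in these libraries. The median log2 fold change of the 10 genes was 0.92, against 0.02 over all genes. In 4 of the 10 genes, Trp53, Cdkn1a, Bbc3 and Phlda3, every CRE library lay above every RFP library, which held for 2.64% of all genes tested. Without CRE 1-3, Mdm2 joined them and the count was 5, against 3.49% of all genes. Over all 23 libraries Bbc3 dropped out and the count was 3, against 1.91%. Cdkn1a alone of the 10 passed a stricter rule (log2 fold change over 1.3 in size, -log10 of the adjusted p over 6), which 1.09% of all genes passed in the higher direction.

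**Figure D1:**
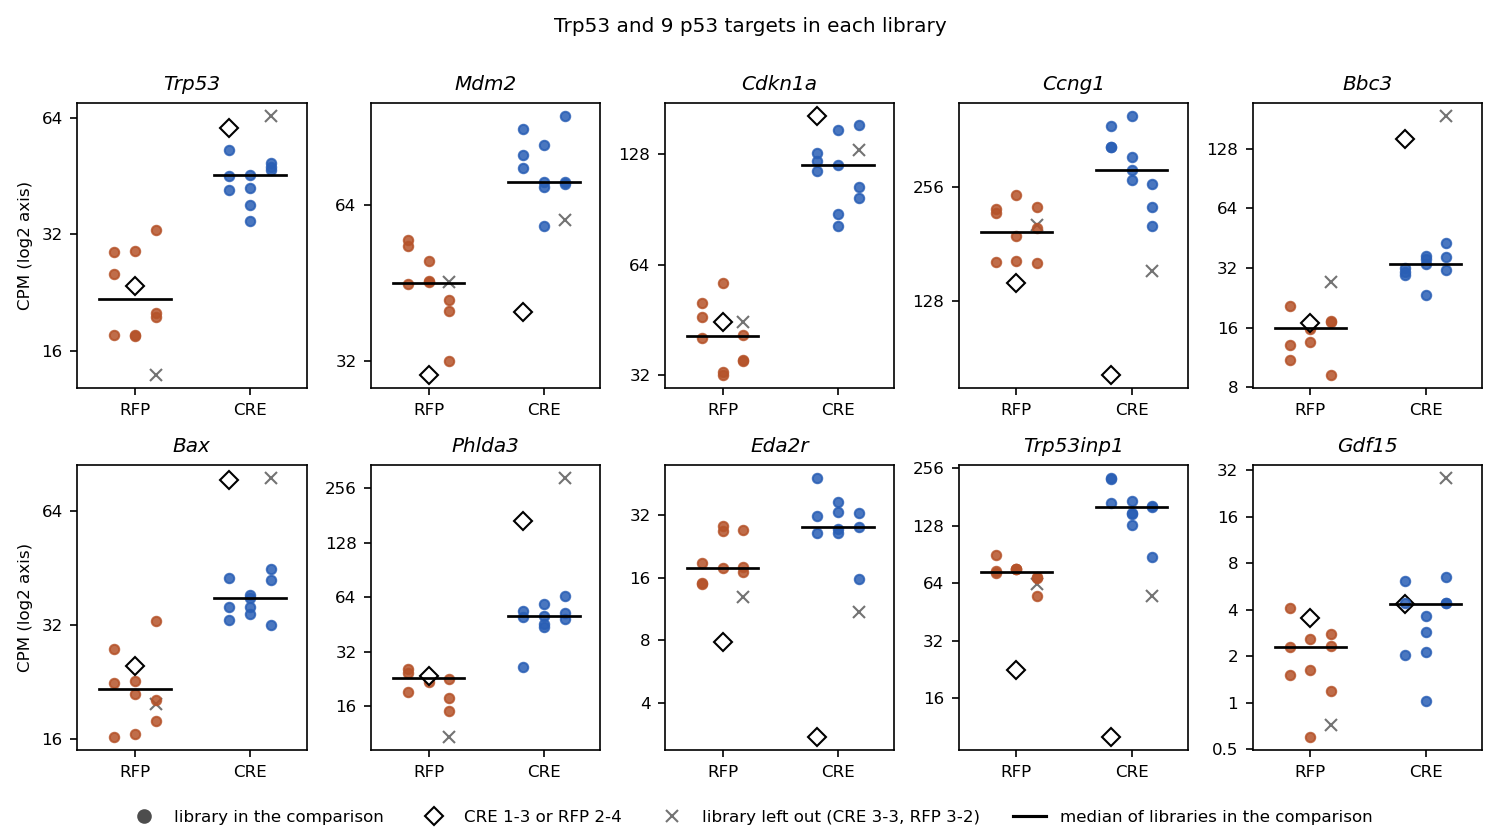
CPM of Trp53 and 9 p53 targets in every library on log2 axes, with RFP left and CRE right, cultures 1 to 3 from left to right within a group, and the median of the libraries in the comparison as a bar. Every CRE circle or diamond lies above every RFP one for Trp53, Cdkn1a, Bbc3 and Phlda3, while among the 11 CRE libraries compared the diamond CRE 1-3 is the highest for Bbc3 at 143 CPM and the lowest for Trp53inp1 at 9.94 CPM. The crosses are the libraries left out.

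Trp53 (chromosome 11, 69469669 to 69482701, plus strand) ranged from 17.4 to 32.8 CPM in RFP libraries, with a median of 21.8. In CRE libraries it ranged from 34.7 to 60.2 CPM with a median of 45.5. The lowest CRE library, CRE 2-4, was thus above the highest RFP library, RFP 3-3. Trp53 had a log2 fold change of 0.96 (SE 0.14, adjusted p = 5.18e-06), a 1.95-fold higher level. Wrap53 and Gm57392, on the other strand, share 419 exon bases with Trp53, and whether counting used the strand was not stated. Wrap53 had a log2 fold change of 0.42 (adjusted p = 0.237).

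Mdm2 (chromosome 10, 117524780 to 117546730, minus strand), the ligase that marks p53 for degradation, ran from 30.1 to 54.9 CPM in RFP libraries around a median of 45.3. In CRE libraries it ran from 39.9 to 95.3 CPM around a median of 71.0. CRE 1-3 was the lowest, and the other 10 CRE libraries were above every RFP library. Its log2 fold change was 0.72 (SE 0.14, adjusted p = 0.000213), and 0.78 without CRE 1-3. Mdm2 thus rose by 1.65-fold, beside the 1.95-fold of Trp53.

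Cdkn1a (chromosome 17, 29309936 to 29319701, plus strand) encodes p21, the inhibitor of cyclin-dependent kinases. Its RFP libraries ran from 31.9 to 57.2 CPM with a median of 40.8, and its CRE libraries from 81.6 to 163 CPM with a median of 120.0. The groups did not overlap. The log2 fold change of 1.52 (SE 0.14, 95% interval 1.23 to 1.81, adjusted p = 8.02e-09) was the highest of the 10, a 2.87-fold higher level. Without CRE 1-3 it was 1.47.

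Ccng1 (chromosome 11, 40639377 to 40646148, minus strand) encodes cyclin G1, which brings a phosphatase to MDM2. It ran from 143 to 244 CPM in RFP libraries with a median of 195, and from 81.9 to 392.5 CPM in CRE libraries with a median of 283. CRE 1-3 was below every RFP library, 8 CRE libraries were above every RFP library, and the groups overlapped. The log2 fold change was 0.50 (SE 0.18, adjusted p = 0.0354). That call rested on single libraries. It was lost without any 1 of 13 of the 21 libraries (CRE 1-1, 1-2, 1-4, 2-1, 2-2, 2-3, 2-4 and 3-1, and RFP 1-2, 2-1, 2-3, 2-4 and 3-4), with log2 fold changes of 0.40 to 0.49 and adjusted p of 0.0526 to 0.0951. Without CRE 1-3 it was 0.59 (adjusted p = 0.000125).

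Bbc3 (chromosome 7, 16042318 to 16052130, plus strand) encodes PUMA, which frees the mitochondrial death pathway by binding BCL2 proteins. It ran from 9.18 to 20.6 CPM in RFP libraries with a median of 15.9, and from 23.3 to 143 CPM in CRE libraries with a median of 33.7. CRE 1-3 held the 143 CPM, and the next highest CRE library was at 43.1. The groups did not overlap. Bbc3 had a log2 fold change of 1.50 (SE 0.26, adjusted p = 7.72e-05) with CRE 1-3 and 1.12 (adjusted p = 2.1e-07) without it, or 2.83-fold and 2.18-fold. Bax (chromosome 7, 45111015 to 45116325, minus strand), whose protein opens the outer mitochondrial membrane, ran from 16.1 to 32.8 CPM in RFP libraries with a median of 21.7. In CRE libraries it ran from 32.01 to 77.4 CPM with a median of 37.9, and CRE 1-3 was again the highest. CRE 3-4 fell just under RFP 3-3, and the other 10 CRE libraries were above every RFP library. Its log2 fold change was 0.87 (SE 0.16, adjusted p = 0.000142), and 0.74 without CRE 1-3.

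Phlda3 (chromosome 1, 135693809 to 135697686, plus strand) encodes an inhibitor of the survival kinase AKT. It ran from 15.0 to 25.8 CPM in RFP libraries with a median of 22.99, and from 26.3 to 170 CPM in CRE libraries with a median of 50.4. CRE 1-2 was the lowest CRE library, just above RFP 1-1, and CRE 1-3 the highest. The log2 fold change was 1.45 (SE 0.22, adjusted p = 1.86e-05), and 1.17 without CRE 1-3. Trp53inp1 (chromosome 4, 11156412 to 11175230, plus strand) encodes a stress-induced partner of p53 that also acts in autophagy. It ran from 22.5 to 90.4 CPM in RFP libraries with a median of 73.3, and from 9.94 to 228 CPM in CRE libraries with a median of 160. The lowest values were those of RFP 2-4 and CRE 1-3. In all, 9 CRE libraries were above every RFP library. Its log2 fold change was 1.12 (SE 0.30, adjusted p = 0.00507), and 1.25 without CRE 1-3.

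Eda2r (chromosome X, 96320270 to 96420847, minus strand) encodes a receptor of the tumour necrosis factor receptor family. It ran from 7.81 to 28.6 CPM in RFP libraries with a median of 17.9, and from 2.72 to 48.5 CPM in CRE libraries with a median of 28.0. The groups overlapped widely, with 5 CRE libraries above every RFP library. The log2 fold change of 0.54 (95% interval -0.04 to 1.11) did not pass the threshold (adjusted p = 0.162). Without CRE 1-3 it was 0.66 (adjusted p = 0.00633), so 1 library decided that call. Gdf15 (chromosome 8, 71082038 to 71091537, minus strand) encodes a secreted cytokine of the TGF-beta family that serves as a stress marker. It had the lowest counts of the 10, from 10 to 58 reads in RFP and 12 to 81 in CRE libraries, or 0.595 to 4.12 CPM with a median of 2.31 and 1.02 to 6.54 CPM with a median of 4.36. The groups overlapped, and the log2 fold change of 0.74 (95% interval 0.03 to 1.44) did not pass the threshold (adjusted p = 0.109). With all 23 libraries it was 1.35 (adjusted p = 0.0229), a value that included CRE 3-3 at 28.6 CPM.

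The deviation of CRE 1-3 ran with the GC content of the genes. Its log2 CPM minus the mean of the other 10 CRE libraries was -3.93 for Trp53inp1 (38.2% GC), -1.82 for Ccng1 (39.4%), -3.23 for Eda2r (40.8%) and -0.92 for Mdm2 (44.4%). It was 0.45 for Trp53 (50.8%), 0.52 for Cdkn1a (54.0%), 1.80 for Phlda3 (56.5%), 1.04 for Bax (58.6%), 0.32 for Gdf15 (59.7%) and 2.11 for Bbc3 (62.2%). The 4 genes under 45% GC were thus low in that library and the 6 genes over 50% GC high. RFP 2-4 was on the same side in each gene, from -1.66 for Trp53inp1 to 0.74 for Gdf15. When each library's trend with GC content was removed, 9 of the 10 genes were called, beside 19.4% of all genes called higher in that fit. Eda2r then had a log2 fold change of 0.57 (adjusted p = 0.0142) and Ccng1 had 0.62. Gdf15 was the one not called. The remaining 7 called genes then ran from 0.77 to 1.45.

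**Figure D2:**
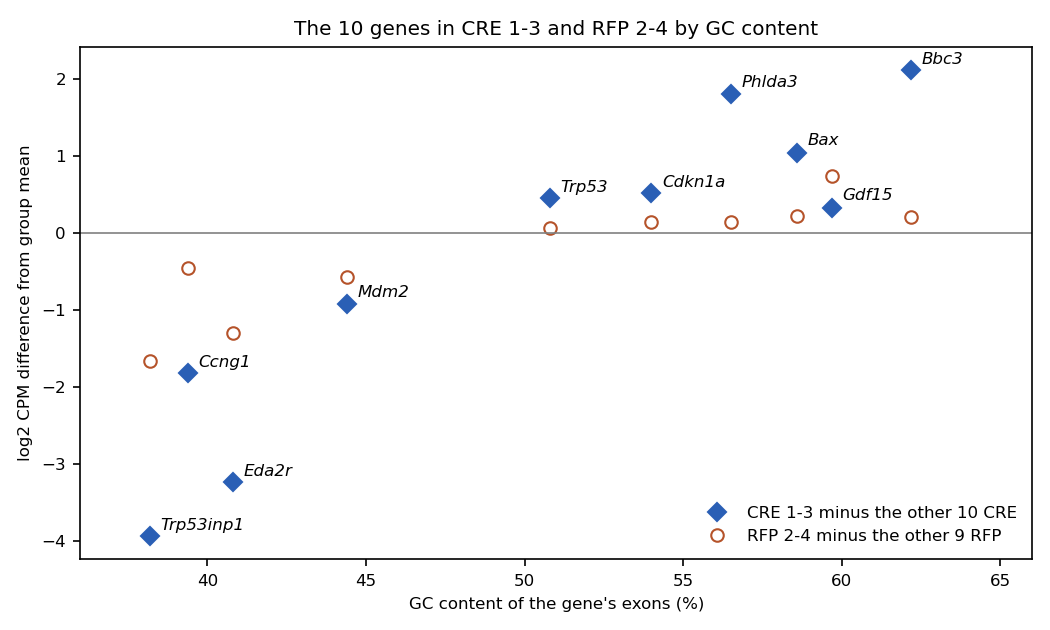
Log2 CPM difference of CRE 1-3 from the mean of the other 10 CRE libraries (diamonds) and of RFP 2-4 from the other 9 RFP libraries (open circles), against the GC content of each gene's exons in percent. The 4 genes under 45% GC lie below 0 in both libraries and the other 6 above 0, from -3.93 for Trp53inp1 to 2.11 for Bbc3 in CRE 1-3.

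**Figure D3:**
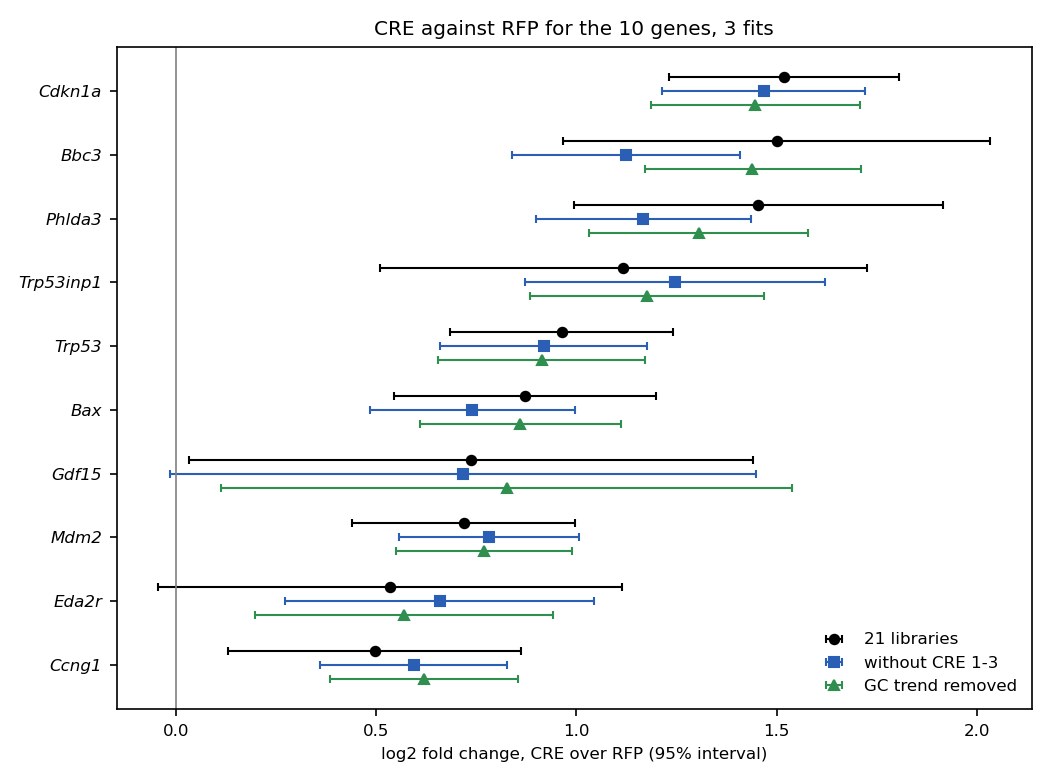
Log2 fold change of CRE over RFP with its 95% interval for the 10 genes, from all 21 libraries (circles), without CRE 1-3 (squares) and with each library's GC trend removed (triangles). All points lie above 0, the intervals of Bbc3, Phlda3 and Trp53inp1 are narrower in the last 2 fits, and the order from Cdkn1a at 1.52 to Ccng1 at 0.50 is that of the 21 libraries.

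Among members within a group, correlations of log2 CPM over the 21 libraries likewise depended on CRE 1-3 and RFP 2-4. Eda2r and Trp53inp1 had r = 0.93 with these libraries and 0.58 without them, Bbc3 and Phlda3 0.84 and 0.48, and Ccng1 and Bbc3 -0.76 and -0.13. Trp53 and Cdkn1a stayed close, at 0.57 and 0.50. Mdm2 and Cdkn1a went from 0.02 to 0.50. These values are descriptions over libraries that share cultures, and no test was attached to them.

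The same direction was seen within each culture number. CRE and RFP libraries of the same number were taken as 1 culture, which the labels do not state. By mean CPM all 10 genes were higher in CRE than in RFP libraries in cultures 1, 2 and 3, which held for 30.6% of all genes tested. Cdkn1a had log2 fold changes of 1.51, 1.38 and 1.67, and Trp53 of 1.03, 0.86 and 0.98, each past an adjusted p of 0.05 in every culture. Mdm2 had 0.45, 0.70 and 1.05, and Gdf15 had 0.65, 0.19 and 1.28. A difference of the CRE effect between cultures was not called for any member by edgeR's interaction test (0 of 10, lowest adjusted p = 0.977), and none had an unadjusted p under 0.05, the lowest being 0.255. Over all genes tested the same test called 0.0069%. The small number of libraries per culture limits what this test can show.

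**Figure D4:**
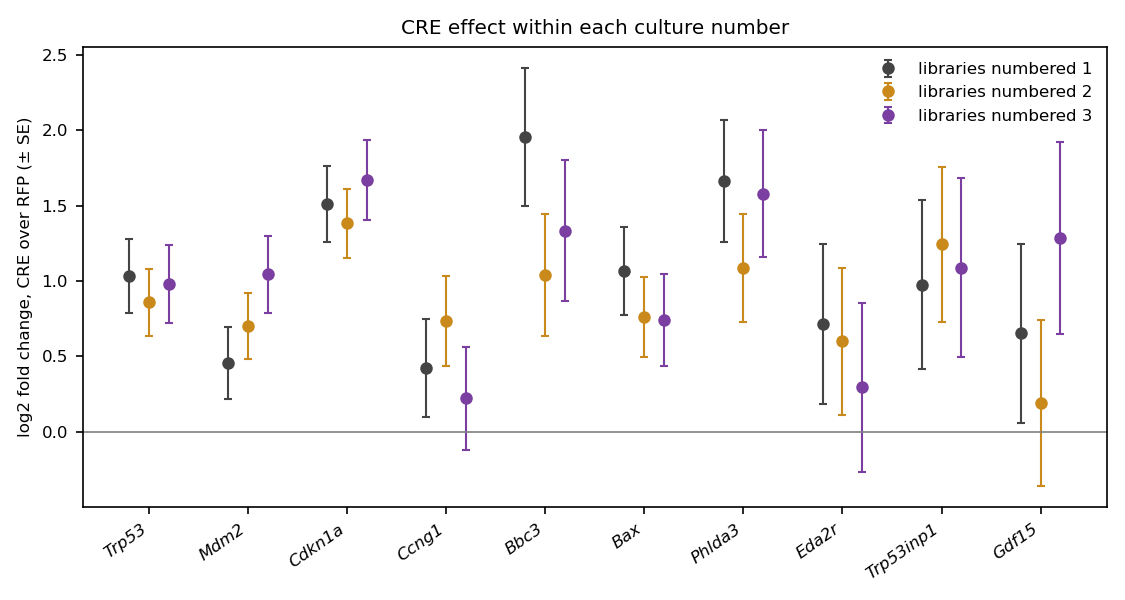
Log2 fold change of CRE over RFP (± SE) within the libraries numbered 1, 2 and 3, for each of the 10 genes. All points lie above 0, from 0.86 to 1.03 for Trp53 and from 0.19 to 1.28 for Gdf15.

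Divided by the length of their exons, the levels in RFP libraries were in the order Ccng1 (43.9 CPM per kb), Bax (12.0), Trp53inp1 (9.25), Phlda3 (8.39), Cdkn1a (6.86), Mdm2 (5.69), Trp53 (3.14), Bbc3 (3.14), Eda2r (2.57) and Gdf15 (0.998). Ccng1 exceeded Bax in 10 of 10 RFP libraries and Mdm2 exceeded Trp53 in 10 of 10, but Trp53 exceeded Bbc3 in 5 of 10, and those neighbours did not differ beyond their spread. In CRE libraries Ccng1 was again highest (62.8 CPM per kb) and Gdf15 lowest (1.69), and Phlda3 (23.4 ± 14.5, SD, n = 11) stood second. That place rested on CRE 1-3: without it Phlda3 was at 19.1 ± 3.97 (SD, n = 10), below Trp53inp1 (22.3), Bax (20.3) and Cdkn1a (19.2). Bbc3 stood above Trp53 (9.02 against 6.21, and 6.93 against 6.01 without CRE 1-3).

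Few of the genes that act on p53 were called. Of 21 regulators tested, 3 were higher in CRE libraries and 0 lower, with a median log2 fold change of 0.12. With edgeR, DESeq2 and limma-voom alike, 3 were higher and 0 lower, and with edgeR 0 were lower at an unadjusted p under 0.05. The share of 3 in 21 was near the 16.4% of all genes. Ppp1r13l, which encodes the p53 inhibitor iASPP, rose from 5.00 ± 1.00 to 10.6 ± 4.94 CPM (SD, n = 10 and 11), a log2 fold change of 1.06 (adjusted p = 0.000886). Cdkn2a, whose products p16 and ARF restrain kinases and MDM2, had 1.32 (adjusted p = 0.0193) and, without CRE 1-3, 0.90 (adjusted p = 0.0633). The third, Trp63, a p53 family member with medians of 0.357 and 1.71 CPM, reached the filter on low counts in 2 RFP and 8 CRE libraries, so it was tested mainly through the group where it is high. It was no longer tested without any 1 of CRE 1-1, 1-2, 1-4, 2-1, 2-2, 2-3, 3-1 and 3-4, and its adjusted p was 0.0502 to 0.0620 without any 1 of 8 RFP libraries (all but RFP 1-1 and 1-3). Setting it aside leaves 2 of 20 regulators higher, with a median of 0.11. Mdm4, the partner of MDM2 that masks p53, was at 90.7 ± 14.1 and 116 ± 39.8 CPM (SD) and did not pass the threshold (0.34, adjusted p = 0.224). Without CRE 1-3 it did (0.45, adjusted p = 0.00145). The kinases that signal damage to p53, Atm and Atr, had log2 fold changes of -0.19 and 0.10.

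Beyond the 9 targets above, 45 further genes known as p53 targets were listed, of which 44 were tested and Sco2 was not. In CRE libraries 20 were higher and 3 lower, with a median log2 fold change of 0.41, beside 16.4% higher, 13.8% lower and a median of 0.02 over all genes tested. Fas reached the filter on low counts in 4 RFP and 10 CRE libraries, and without it 19 of 43 were higher, with a median of 0.36. Perp and Ass1, which reached it in 5 RFP libraries each, remain among the 43. In bulk RNA a higher or lower level of this kind cannot be assigned to more or fewer cells of a type or to more or less RNA per cell. The members of this list moved unequally, and several of those that rose have regulators besides p53. The part of p53 or of other regulators in these levels was not tested.

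Of 17 targets in arrest and repair, 6 were higher and 0 lower, with a median of 0.22, against the same 16.4% and 13.8%. Among the 6, Xpc had 0.465 (adjusted p = 0.0491). That call was lost without any 1 of 18 of the 21 libraries, with adjusted p of 0.0557 to 0.101. Gadd45a, a damage-inducible brake on the cell cycle, ran from 1.67 to 5.66 CPM in RFP libraries with a median of 3.67 and from 13.5 to 31.3 CPM in CRE libraries with a median of 21.7. No CRE library overlapped the RFP range, and the log2 fold change was 2.60 (SE 0.22, adjusted p = 1.88e-09). Sfn, which encodes 14-3-3 sigma, rose by 2.10 (adjusted p = 1.84e-05), Polk, a polymerase that copies past damaged bases, by 1.16, and Sesn2, a stress sensor that restrains mTORC1 and is also a target of ATF4, by 1.08 (adjusted p = 5.97e-05). Psrc1, a spindle protein, rose by 0.89. The sestrin Sesn1, at 27.0 ± 3.58 and 31.1 ± 6.84 CPM (SD), had 0.19 (95% interval -0.09 to 0.46, adjusted p = 0.314). Zmat3, an RNA-binding protein and one of the most regular p53 targets, was at 242 ± 27.3 and 257 ± 39.5 CPM (SD), with 0.06 (95% interval -0.14 to 0.27, adjusted p = 0.684). That interval lies wholly below the one of Cdkn1a.

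Of 13 targets in cell death, 6 were higher and 1 lower, with a median of 0.74 (5 of 12 higher and a median of 0.53 without Fas), against 16.4% higher over all genes. Fas, the death receptor, ran from 0 to 1.38 CPM in RFP libraries and from 0.272 to 13.8 CPM in CRE libraries, with medians of 0.371 and 5.04. Its log2 fold change of 3.27 (SE 0.65, adjusted p = 0.000386) rests on at most 16 reads in an RFP library, and 10 of 11 CRE libraries were above every RFP library. Tnfrsf10b, the receptor for TRAIL, ran from 1.58 to 5.47 CPM in RFP and from 8.97 to 19.9 CPM in CRE libraries, with no overlap and a log2 fold change of 2.28 (SE 0.25, adjusted p = 1.33e-07). Perp, a membrane protein of desmosomes and apoptosis, rose by 2.00, with medians of 0.920 and 3.90 CPM. It reached the filter on low counts in only 5 RFP but 11 CRE libraries. Steap3, an iron reductase, rose by 1.48, and Pidd1, the scaffold that activates caspase-2 complexes, by 1.47. Aen, a nuclease of dying cells, rose by 0.91 (adjusted p = 2.58e-05) with every CRE library above every RFP library. Pmaip1, which encodes NOXA, a BCL2-binding protein like PUMA, was at 11.5 ± 4.69 and 13.9 ± 5.74 CPM (SD) and had 0.26 (95% interval -0.33 to 0.85, adjusted p = 0.544). The gene that fell was Trp53i11, by 0.87 on the log2 scale (adjusted p = 0.0069).

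Of 15 targets in metabolism and other roles, 14 were tested, with 8 higher, 2 lower and a median of 0.75, against 16.4% and 13.8%. Among the 8, Fdxr had 0.677 (adjusted p = 0.0345). That call was lost without any 1 of 9 of the 21 libraries, with adjusted p of 0.0525 to 0.0742. Abhd4, a lipid hydrolase, ran from 131 ± 24.6 CPM in RFP to 502 ± 152 CPM in CRE libraries (SD), with no overlap and a log2 fold change of 1.92 (SE 0.17, adjusted p = 6.4e-09). Lif, a cytokine, rose by 1.82, Dcxr, a carbonyl reductase, by 1.81, and Ass1, an enzyme of arginine synthesis, by 1.69. Ass1 had medians of 1.01 and 3.57 CPM and reached the filter on low counts in only 5 RFP but 10 CRE libraries. Ephx1, an epoxide hydrolase that NRF2 also raises, rose by 1.68 (adjusted p = 7.11e-08). Ptp4a3, a phosphatase, fell by 0.55 on the log2 scale (adjusted p = 0.0105). Tigar, a brake on glycolysis, fell by 0.46 (adjusted p = 0.0397), and that call was lost without any 1 of RFP 1-1, 1-3, 2-4, 3-1, 3-3 and 3-4, with values of -0.47 to -0.42 and adjusted p of 0.0504 to 0.0760.

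**Figure D5:**
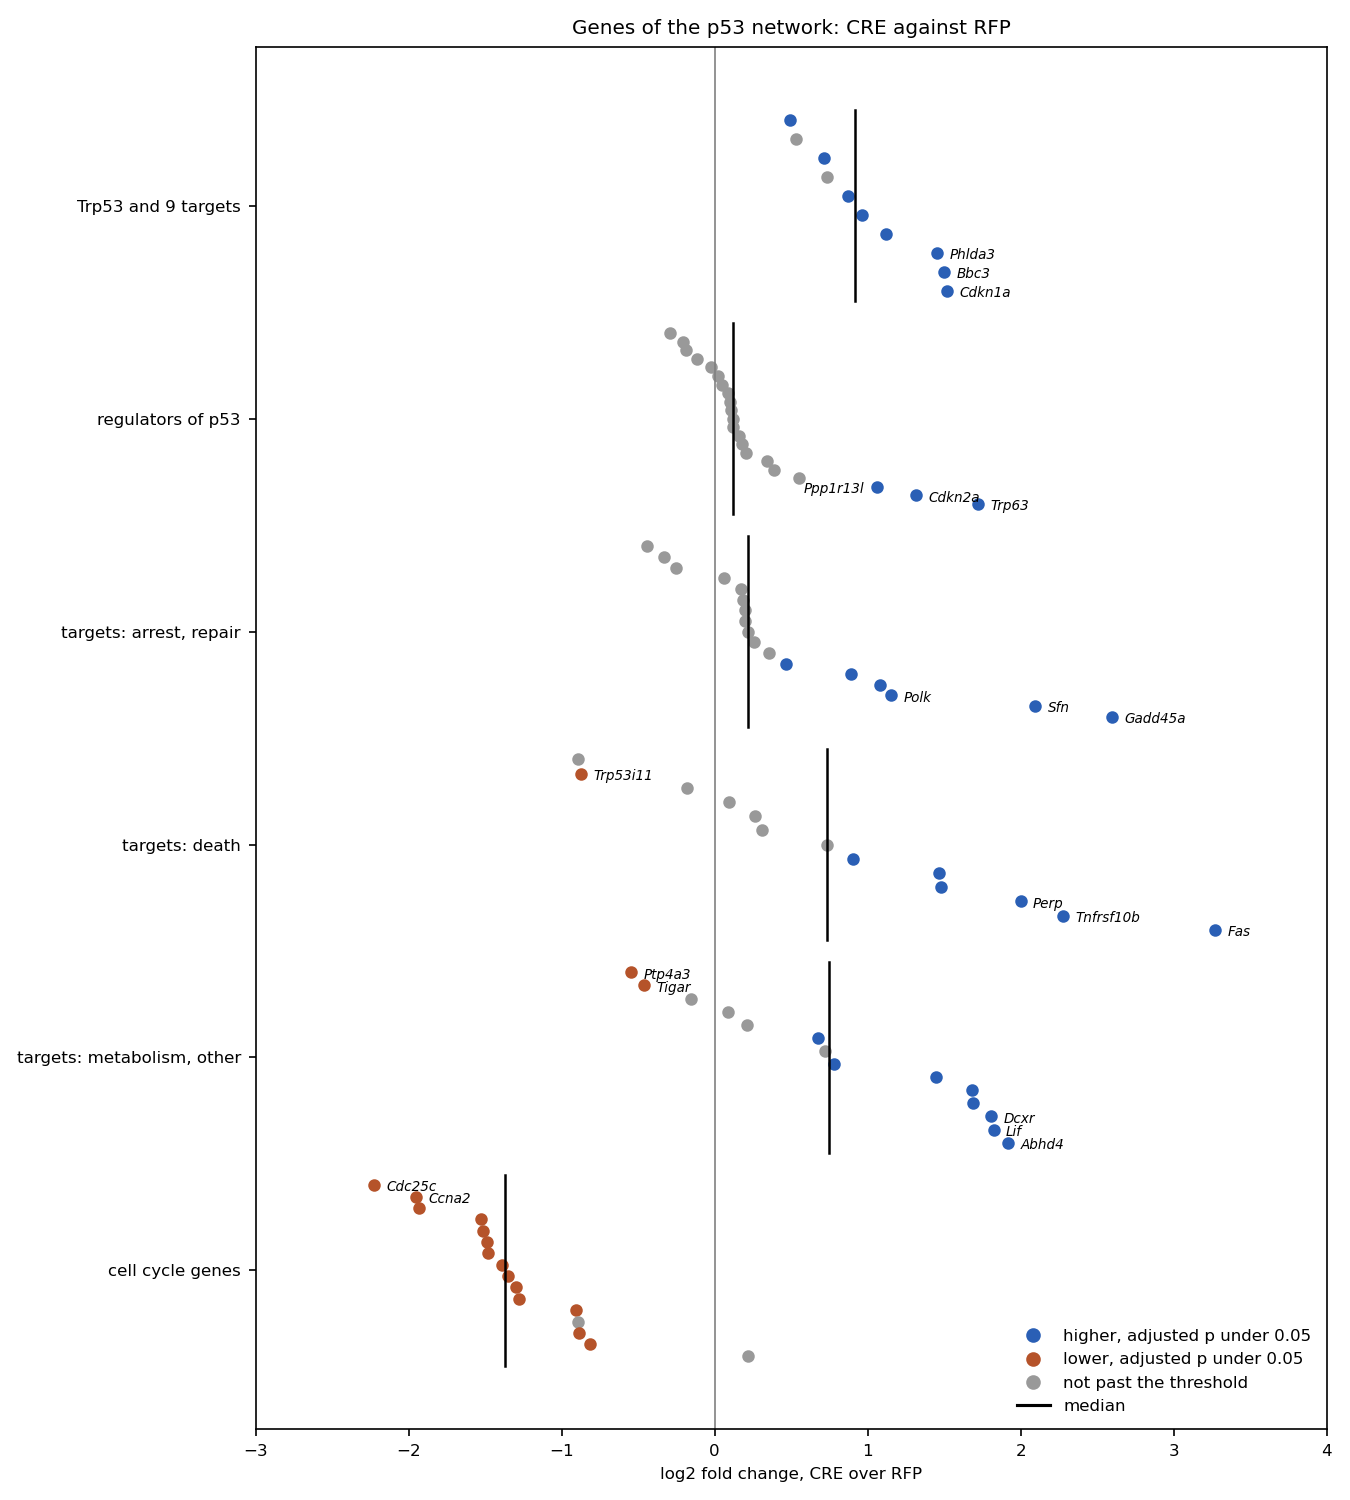
Log2 fold change of CRE over RFP for each gene tested of 6 lists, ordered by value within a list, with blue points higher and red points lower at an adjusted p under 0.05, grey points not past it and a bar at each list's median. Medians run from 0.92 for Trp53 and its 9 targets through 0.12 for the regulators to -1.37 for the cell cycle genes.

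p53 and p21 are known to shut down genes of the cell cycle through the DREAM complex and E2F factors. Of 16 such genes, 14 were lower in CRE libraries (13 of 15 without Cdc25c) and 0 higher, with a median log2 fold change of -1.37, against 13.8% lower over all genes. With edgeR 0 were higher at an unadjusted p under 0.05, and DESeq2 and limma-voom also called 14 lower and 0 higher. Ccna2, cyclin A2, fell from 27.6 ± 5.21 to 7.20 ± 5.35 CPM (SD), by 1.95 on the log2 scale (adjusted p = 5.67e-05), and Mki67, the proliferation marker Ki-67, fell from 88.9 ± 16.9 to 23.6 ± 18.9 CPM, by 1.93. For both, every CRE library was below every RFP library, as for 2.08% of all genes. Cdc25c, a phosphatase that starts mitosis, which reached the filter in 9 RFP and 4 CRE libraries, fell by 2.23, Bub1b, a spindle checkpoint kinase, by 1.52, and Top2a, a topoisomerase of dividing cells, by 1.51. E2f1 (0.22) and Tyms (-0.89, adjusted p = 0.124) did not pass the threshold. Without the libraries of culture 2, 6 of the 16 were called lower. Calls fell over all genes too in that fit, with 803 of 14745 lower against 1996 of 14488.

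Markers of several cell types of such a dish moved between the groups as well, beside 16.4% higher and 13.8% lower over all genes tested. Of 8 markers of the oligodendrocyte lineage 5 were lower and 0 higher, and their summed level ran from 647 to 1867 CPM in RFP and from 425 to 1910 CPM in CRE libraries, with medians of 1500 and 798. Pdgfra, a marker of its precursors, and Sox10, a marker of the lineage, had log2 fold changes of -2.60 and -3.13. Olig1 (-0.21, adjusted p = 0.491), Mbp (-0.65, adjusted p = 0.0863) and Mog (0.21, adjusted p = 0.791) were not called. Of 8 astrocyte markers 4 were lower and 1 higher (3612 to 7845 CPM in RFP, 1559 to 5126 in CRE). Among the lower ones Aldoc (-0.64, adjusted p = 0.0490) lost its call without any 1 of 15 libraries. The higher one, Gja1 (0.62, adjusted p = 0.0199), lost it without CRE 1-1 (adjusted p = 0.0541). Of 8 neuronal markers 5 were lower and 0 higher. In the 21 libraries their sum did not overlap between groups (5485 to 6533 CPM in RFP, 2974 to 5169 in CRE). RFP 3-2, outside the comparison, was at 4961 CPM, inside the CRE range. Of 8 endothelial and mesenchymal markers 5 were tested and 1 was higher (16.99 to 105 CPM in RFP, 12.5 to 239 in CRE). Of 8 microglial markers 2 were tested and 1, Tmem119, was higher (sums of 1.09 to 6.56 CPM in RFP, 0.341 to 8.06 in CRE). Tmem119 reached the filter on low counts in 1 RFP and 9 CRE libraries, so it was tested mainly through the group where it is high. Csf1r, the other marker tested, was not called (log2 fold change -1.02, adjusted p = 0.223). It had medians of 1.10 CPM in RFP and 0.272 CPM in CRE libraries and reached the filter in 7 RFP and 4 CRE libraries. C1qa, Cx3cr1, Itgam and Ptprc had medians of 0, though Itgam shares 3450 of its 5118 exon bases with Gm49368 on its own strand. P2ry12 (medians of 0.125 and 0.587 CPM) and Aif1 (0.125 and 0) were not tested. The part of these cell types in the levels of p53, its targets and the cell cycle genes was not tested.

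The genes whose log2 CPM over the 21 libraries ran closest to a member were named by the highest Pearson's r, as a description that includes the difference between the groups. For Trp53 these were Shc1 (0.917), Tsku (0.916) and Procr (0.907). Procr had means of 0.227 CPM in RFP and 11.8 CPM in CRE libraries, so it was eligible only through the CRE group. For Cdkn1a they were Rrbp1 (0.957), Spry4 (0.947) and Dusp4 (0.944), and the values hardly moved over the 19 libraries without CRE 1-3 and RFP 2-4 (0.954, 0.945 and 0.936). For Mdm2 they were Map3k20 (0.892), Ube2l6 (0.884) and Rgs5 (0.881). Ube2l6, with means of 3.91 CPM in RFP and 11.5 CPM in CRE libraries, was likewise eligible only through the CRE group. For Bbc3 they were Sqstm1 (0.935), Dchs1 (0.928) and Spen (0.924), for Bax Cdc42bpg (0.929), Tln1 (0.928) and Gtse1 (0.915), and for Phlda3 Fzd8 (0.957), Irs2 (0.928) and Niban2 (0.924). For Ccng1 they were Calu (0.950), Ghitm (0.940) and Slc30a4 (0.930), and for Trp53inp1 Rb1 (0.952), B2m (0.951) and Phip (0.950). Eda2r ran closest to Tmx1 (0.937), Npm1 (0.937) and Maoa (0.935), which fell to 0.810, 0.863 and 0.785 over the 19 libraries. Gdf15 had the lowest values, with Psrc1 (0.755), itself a listed p53 target, Pdgfc (0.714) and Dst (0.709).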

How the data were processed

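RNA of 23 libraries (12 CRE, 11 RFP) was measured by Illumina Stranded mRNA Prep sequencing. The authors aligned reads with STAR 2.7.8a to GRCm39 and deposited raw whole-number counts per gene from featureCounts 1.5.0-p1, per the labels and the submitters' processing notes. The strand setting is not given in the sources used here, so reads of overlapping antisense genes cannot be told apart. Identifiers were named with GENCODE M39 on GRCm39.

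The fit used the 21 libraries of the study's own count table, without CRE 3-3 and RFP 3-2. The study's methods name another pair, CRE 1-3 and CRE 3-3, which was an alternative. edgeR 4.0.16 in R 4.3.3 was run with filterByExpr, TMM, estimateDisp, robust glmQLFit and glmQLFTest, two-sided, and p-values were adjusted by Benjamini and Hochberg's method over every gene tested. A call was an adjusted p under 0.05. CPM used TMM factors over all 23 libraries, with a pseudocount of 0.5 for correlations of log2 CPM. The study gives 3 animals or biological replicates, read here as the cultures numbered 1 to 3. Libraries of 1 culture are therefore not separate animals, and p-values over libraries measure a spread that may be partly technical. Sums per culture (3 against 3) were an alternative. No pair of libraries of a group agreed within sampling noise (lowest chi-square per degree of freedom 10.8). All 10 members passed the filter on low counts.

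DESeq2 1.42.0, limma 3.58.1, other scaling, filters, sets of libraries, blocks, sums per culture and removal of GC trends were alternatives. Leaving out each library in turn, and the GC trend together with the culture block, were added after seeing the data. The members and lists (regulators, 3 groups of other targets, cell cycle genes, cell type markers) were chosen with earlier results of these data known. Genes named were the members and the called genes of each list, at most 5 per direction by size. Mdm4, Zmat3, Sesn1, Fas, Pmaip1 and Aen were named too. So were the 3 genes of highest r per member, among genes with a mean of at least 5 CPM over the 21 libraries. Wrap53, Atm, Atr, Xpc, Fdxr, E2f1, Tyms and the glial markers were added after their values were seen. p53 sites were searched around Ensembl canonical starts. Each script for tests across genes was tested on simulated data.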

Additional observations from a re-analysis of the deposited data

Results flagged for a closer look

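CRE 3-3 was outside the comparison, and in that library 7 of the 10 genes were above the highest of the 10 RFP libraries compared. The share of all genes that lay so in CRE 3-3 was not counted, so the 7 cannot be set against a background. Trp53 was at 64.8 CPM (highest RFP library 32.8), Mdm2 at 60.0 (54.9), Cdkn1a at 132 (57.2), Bbc3 at 188 (20.6), Bax at 78.4 (32.8), Phlda3 at 293 (25.8) and Gdf15 at 28.6 (4.12). The remaining members, Ccng1 at 153, Eda2r at 10.9 and Trp53inp1 at 54.6 CPM, were not, and these are the 3 with the lowest GC content. CRE 3-3 held 1546796 counts in all, a mitochondrial share of 1.83% and a Spearman correlation with GC content of 0.535, and the part of these in its values was not tested.

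Trp53inp1 in RFP 2-4, at 22.5 CPM, lay far below the other RFP libraries, the next lowest of which was at 55.0 CPM. Its gap took 0.479 of the group's range, above Dixon's critical value of 0.466 for 10 samples. It was 1 of 10 genes examined in this way, and chance gives about 1 in 20 for each gene. The 10 genes share the same libraries, so these looks are not independent. RFP 2-4 had a Spearman correlation with GC content of 0.448, and Trp53inp1 has the lowest GC content of the 10 (38.2%). The part of GC content in this value was not tested. The CRE group, with 11 libraries, was not examined in this way.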

How the results depend on the processing

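The direction of all 10 members and of Nedd8 was kept under each of the 40 alternatives, and no member was called lower in any. Trp53, Mdm2, Cdkn1a, Bbc3, Bax and Phlda3 were called in every one. While the share of all genes called higher ran from 8.89% to 20.4%, the number of members called ran from 6 to 9 of 10. It was 8 with DESeq2, 6 with limma-voom (Ccng1 and Trp53inp1 lost), and 9 for the libraries left by the study's methods and for sums per culture. Among the other lists, the regulators higher in CRE were 5 for the libraries left by the study's methods, and from 1 to 4 with a culture or library left out. With a culture or library left out the other targets lower in CRE were 0 to 4 and the cell cycle genes lower were 6 to 14. These lowest counts came without culture 2 (for the regulators also without culture 3), where 1311 genes were called higher and 803 lower of all genes, against 2374 and 1996. The cause was not tested.

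Numbers did not pair the libraries (correlations of deviations -0.07 to 0.12 over 9 pairs), so the replicate block is given here only. For the means of cultures 1, 2 and 3 the correlations were 0.035, 0.005 and 0.152. With the replicate block of culture number 8 members were called, with library number 7, and with culture and library number together 6 members, 1 regulator and 1 lower target. Of all genes 15.9%, 15.4% and 11.3% were then higher. With library totals and no factor, 65.8% of calls were higher (2949 against 1533), against 54.3%, and the median of all genes was 0.11 in place of 0.02. Without a filter 4367 were higher and 2553 lower (63.1%). For Gdf15, with 10 to 81 reads, counting noise limits the comparison.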
